A study of Drosophila melanogaster with 4 samples.

Results

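The pericentric end of the left arm of chromosome 3 was described as the last 2 Mb of sequence 3L, from 22543558 to 24543557 on FlyBase release 5, cut into 2000 windows of 1 kb. These are 2000 of the 139706 windows of 1 kb on the 13 sequences that carried clusters. The windows were chosen by position alone, and the value of a window is the percent of its bases inside clusters. The inner 1500 kb, from 23043558 to the sequence end, is called the block, and the 500 kb outward of it, from 22543558 to 23043557, is called the flank. "Outward" means away from the centromere end and "inward" means toward it.

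Trimethylation of lysine 9 of histone H3 (H3K9me3) was mapped by chromatin immunoprecipitation and sequencing in nuclei of heads from wild-type Oregon-R flies (Oregon-R-modENCODE) at the mixed adult stage, with an antibody lot that the labels call new. There were 2 ChIP libraries, each with its own input library, and no treated or mutant group. Heads were sieved from adults of population cages kept on a 22-day cycle, so each library pools many animals, whose sex and exact age are not stated. It is not stated either if the 2 replicates are separate collections, and their SD may measure technical variation only.

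H3K9me3 is the histone mark of constitutive heterochromatin. It is laid down by SU(VAR)3-9 and related methyltransferases and bound by heterochromatin protein 1, and together they keep the repeat-rich sequence around centromeres compact. Genes moved next to a pericentric block can be silenced in some cells and not in others, which is known as position-effect variegation. The place where the mark stops along an arm, and how gradually it stops, is therefore a basic description of the border between euchromatin and heterochromatin.

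The deposited values are lists of enriched clusters, each with a start, an end and a score whose scale is not given in the sources used here. Replicate 1 listed 99 clusters in the 2 Mb, replicate 2 listed 93 and the combined set of the series, a single list from the authors, listed 98. The lists hold no read counts, so the depth is unknown. The narrowest cluster was 1301 bp in each replicate and 1001 bp in the combined set. Features smaller than that are not resolved. With 2 libraries, an exact two-sided permutation test over samples of 2 values against 2 cannot give a p below 0.333, so differences are set against the SD between replicates and no p-value is given.

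**Figure D1:**
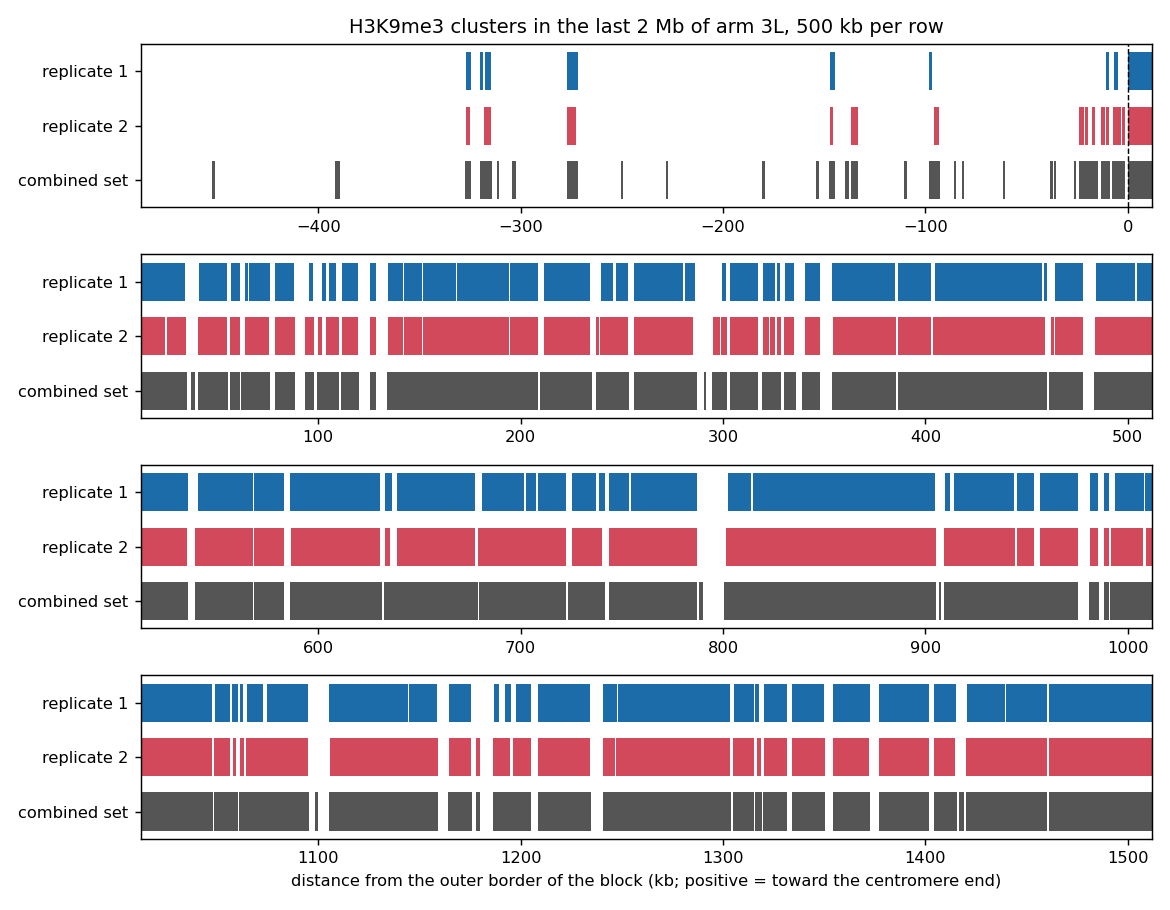
Clusters of the 3 lists along the last 2 Mb of arm 3L, 500 kb per row, with distance in kb from the outer edge of the first cluster of at least 10 kb in the combined set (dashed line, 0). A few narrow bars lie outward of 0, and inward of it long bars with narrow gaps fill the rows to the arm's end, with the gaps at nearly the same places in the 3 lists.

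The mark filled most of the block and little of the flank. In the block, replicate 1 had 83.5% of bases inside clusters, replicate 2 had 85.9% and the combined set had 90.4%. In the flank these values were 6.50%, 8.87% and 15.8%. The replicate means were 84.7% ± 1.69 (SD, n = 2) and 7.69% ± 1.67 (SD, n = 2). The 2 sides were divided near where earlier results had shown coverage to change, so this contrast is a description. The flank also holds about 12.2 kb of the first wide cluster. Flank coverage was 4.01% outward of each list's own split, and 3.61% from clusters scoring no less than their file's median. For comparison, 3L outward of the 2 Mb was 4.38% ± 0.613 (SD, n = 2) covered.

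A window was called covered when at least 50% of it lay inside clusters. In the block 1263 of 1500 windows were covered in replicate 1 and 1291 in replicate 2, or 84.2% and 86.1%. Over all 13 sequences 16.7% of windows were covered in replicate 1 and 16.5% in replicate 2. In the combined set 1366 of the block's windows were covered, against 24.1% of windows over the 13 sequences. The flank had 500 windows, of which replicate 1 covered 32, replicate 2 covered 44 and the combined set covered 81, or 6.40%, 8.80% and 16.2%. On 3L outward of the 2 Mb the shares were 4.87%, 3.97% and 9.59%. Most windows were wholly in or wholly out: 1162 block windows were fully covered in replicate 1 and 173 had no covered base, and in replicate 2 the counts were 1213 and 149.

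**Figure D2:**
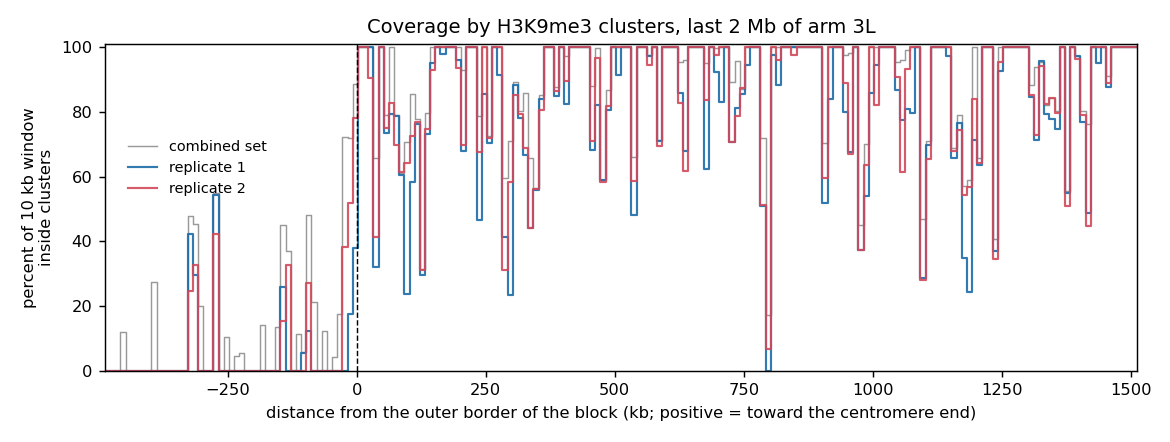
Percent of each 10 kb window inside clusters, for replicate 1, replicate 2 and the combined set, against distance in kb from the outer border (dashed line). Coverage steps up near 0 in replicate 1, while in replicate 2 and the combined set it already rises in the 30 kb before 0. Inward it stays high to the arm's end, with short dips that the 3 lists share. In the flank the combined set shows more peaks than either replicate.

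The outer border was sharp for strong, wide clusters and blurred by a belt of weak, narrow ones. Coming from the outer side, the first cluster of at least 10 kb started at 23031674 in replicate 1, at 23031275 in replicate 2 and at 23031352 in the combined set. These starts lay within 399 bp of each other, at 1512.1 kb ± 0.282 (SD, n = 2) from the arm's end in the replicates. In replicate 1 this cluster ran to 23065443 with a score of 1.43. In replicate 2 it ran to 23055642 with a score of 1.81, and in the combined set to 23066382 with a score of 1.49.

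The lists differed just outward of that edge. In the 30 kb before it, replicate 1 had 2 clusters and was 12.2% covered. Replicate 2 had 8 clusters there and was 48.6% covered, and the combined set had 7 clusters and was 70.2% covered. The first 30 kb inward were 96.8% covered in replicate 2 and 100% covered in each of the other lists. The inward 30 kb begin at each list's own wide cluster, so their high coverage follows from how the edge was chosen.

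The fringe clusters were low in score in every list, and in the replicates they were also narrow. In replicate 1 they scored 0.48 (23020415 to 23022177) and 0.54 (23024581 to 23026481). In replicate 2 their scores ran from 0.49 to 0.67 and their widths from 1535 to 2260 bp, the outermost starting at 23007460. In the combined set the scores ran from 0.34 to 0.50 and the widths from 1040 to 6810 bp, with a median of 2260 bp against 1393 bp for its clusters further out. Both fringe clusters of replicate 1 were also in replicate 2, which covered 90.1% and 91.3% of them. The other 6 fringe clusters of replicate 2 had no base in replicate 1 and were at least 99.2% covered by the combined set. Only 282 bp of replicate sequence in the whole flank lay outside the combined set, so its coverage of a cluster there is no independent support.

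A single split of the 2 Mb fell at different places in the lists. The split was the position that best separated the 1 kb windows into an outer and an inner mean by least squares. It fell 1512 kb from the arm's end in replicate 1 (23031558) and 1536 kb from it (23007558) in both other lists. The mean over the replicates was 1524 kb ± 17.0 (SD, n = 2). With the fringe clusters alone left out, a setting chosen after seeing the data, it fell at 1512 kb in all 3 lists. Restricting each list to clusters scoring no less than its median over all sequences gave the same position. This left 81, 73 and 73 clusters in the 2 Mb and none in the fringe. Both settings empty the 30 kb before the first wide cluster. A split at its start follows from that and is no independent support for the border. Outward of its own split, replicate 1 was 4.23% covered and replicate 2 was 3.79% covered, close to the 4.38% of the rest of the arm. Inward of it they were 83.6% and 85.7% covered.

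**Figure D3:**
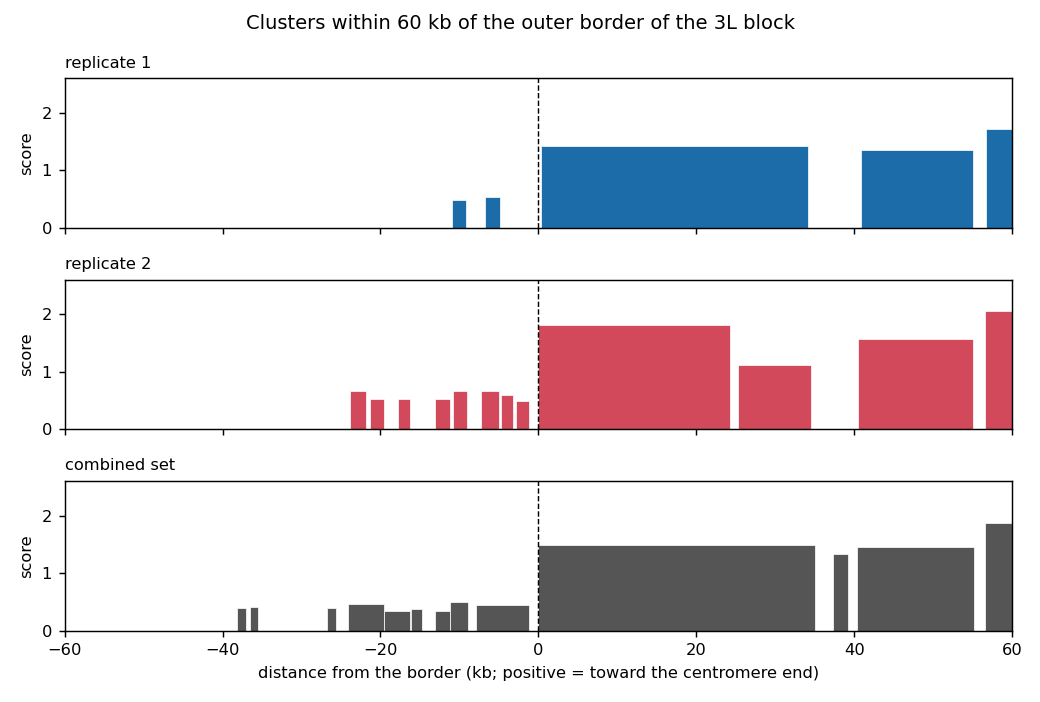
Clusters within 60 kb of the outer border, 1 panel per list; bar width is cluster width, bar height is the authors' score, and 0 (dashed line) is the outer edge of the first cluster of at least 10 kb in the combined set. Bars outward of 0 score at most 0.67. They are narrow in the replicates and reach 6810 bp in the combined set. The first bar inward scores 1.43, 1.81 and 1.49 from the top panel to the bottom one.

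Beyond the fringe the flank held a few separate clusters, most of them at the same places in both replicates. Each replicate had 7 clusters in these 458 kb. The longest was 5427 bp in replicate 1 (22754479 to 22759905, score 1.16) and 4243 bp in replicate 2 (22754411 to 22758653, score 1.41). The combined set had it at 5493 bp with a score of 1.24. It was the only cluster outward of the border that scored above 1 in the replicates. The next longest of replicate 1 were 2768 bp (22704164 to 22706931, score 0.78) and 2589 bp (22884046 to 22886634, score 0.66), and replicate 2 covered 82.9% and 59.6% of them. Replicate 2 had clusters of 3261 bp (22894770 to 22898030, score 0.70) and 2696 bp (22935573 to 22938268, score 0.56) with no base in replicate 1; the combined set covered both in full. In the combined set 2 flank clusters were longer than that of 5493 bp: one of 6810 bp in the fringe (23023401 to 23030210, score 0.44) and one of 5604 bp (22711465 to 22717068, score 0.44). The longest run of uncovered windows in the flank was 161 kb in both replicates and began at the outer end of the 2 Mb.

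Clusters inside the border were wider and scored higher than those outside it. The division at the first wide cluster itself keeps every cluster of at least 10 kb on the inner side. Among clusters from the first wide one inward, the median score was 1.60 in replicate 1 and 1.72 in replicate 2, and the median width was 9971 and 10672 bp. Outward of it, 8 of 9 clusters in replicate 1 and 14 of 15 in replicate 2 scored under 1. Inward, 15 of 90 (16.7%) and 8 of 78 (10.3%) did. Clusters of at least 10 kb numbered 45 in replicate 1 and 42 in replicate 2 and held 86.4% and 88.0% of the inward cluster sequence. Their scores ran from 1.09 to 2.50 in replicate 1 and from 1.26 to 2.36 in replicate 2.

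Scores also differed between the sides among clusters of like width. Those under 3 kb had a median score of 0.56 outward of the border in both replicates, with a highest value of 0.78 in replicate 1 (8 clusters) and 0.91 in replicate 2 (13 clusters). Inward, clusters under 3 kb had a median score of 1.04 in replicate 1, where 12 of 22 reached 1 or more, and of 1.25 in replicate 2, where 11 of 17 did. The ranges overlapped at the low end, since the weakest narrow clusters inside the border scored 0.40 and 0.45. In the combined set the medians were 0.42 outward and 1.28 inward, with 1 of 22 outward clusters at 1 or more. That cluster, 1001 bp from 22803116 to 22804116, scored 3.20 and had no base in either replicate.

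**Figure D4:**
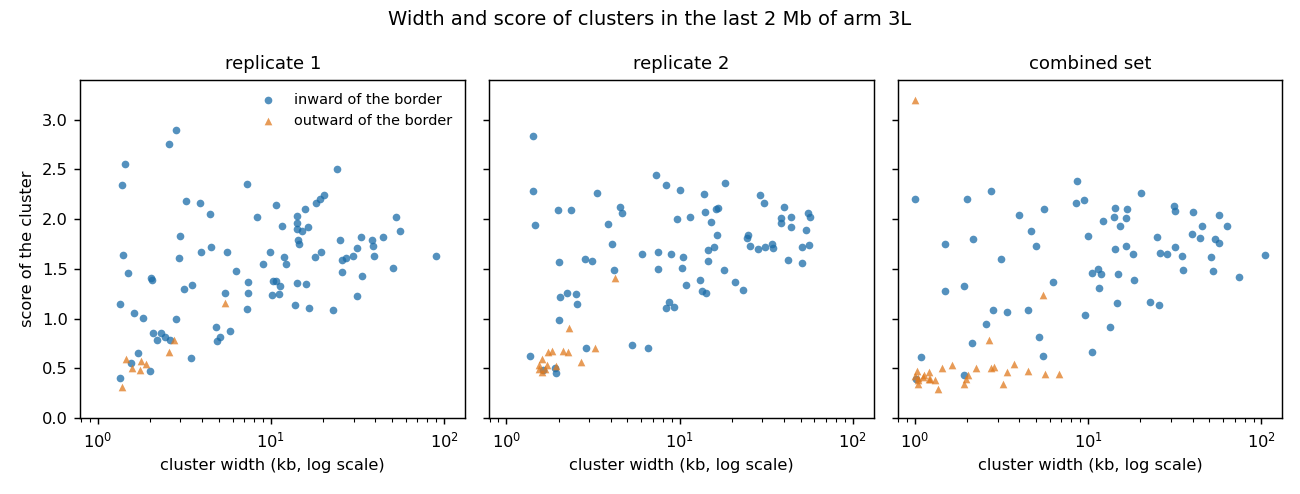
Score against width in kb (log scale) of each cluster in the 2 Mb, 1 panel per list, split at the start of the first cluster of at least 10 kb in that list. Most triangles (outward) sit low and narrow. The combined set has 1 at a score of 3.20, and wider ones of 5604 and 6810 bp that score 0.44. In each list another scores above 1, at 1.16, 1.41 and 1.24 from the left panel to the right one, with widths of 5427, 4243 and 5493 bp. Circles (inward) reach widths above 50 kb, and narrow ones spread over the whole score range.

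The longest stretches of the block were nearly the same sequence in each list, divided differently. The longest cluster of replicate 1 was 89.8 kb (23846281 to 23936043, score 1.63). Replicate 2 covered 99.7% of it with 2 clusters, and the longer of these was its second longest cluster overall at 56.1 kb (23880517 to 23936571, score 1.74). The combined set had 1 cluster of 105 kb there (23831825 to 23936535, score 1.64), which held 2 clusters of replicate 1 and 3 of replicate 2. A cluster near the inner end was 55.4 kb in replicate 1 (24279565 to 24335004, score 1.88) and 56.5 kb in replicate 2 (24278534 to 24335012, score 2.02), and the combined set had it at 63.3 kb (24271890 to 24335176, score 1.93). Another was 52.9 kb in replicate 1 (23436036 to 23488982, score 2.02) and 55.4 kb in replicate 2 (23435256 to 23490644, score 2.06), and the combined set had it at 56.5 kb (23434757 to 23491245, score 2.04). Replicate 1 had more clusters inward of the border than replicate 2, 90 against 78, and less covered sequence.

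The other long clusters behaved alike. In replicate 1 the next by length were 51.0 kb (24492605 to the arm's end, score 1.51) and 44.5 kb (23617586 to 23662125, score 1.82), and replicate 2 covered at least 99.1% of each. In replicate 2 the next were 53.3 kb (24137014 to 24190341, score 1.89) and 51.1 kb (23515384 to 23566467, score 1.56), and replicate 1 covered 99.1% and 98.1% of them. In the combined set a cluster of 74.6 kb (23165586 to 23240164, score 1.42) held 5 clusters of replicate 1 and 4 of replicate 2, and one of 57.0 kb (24022563 to 24079586, score 1.76) held 2 of each.

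The block had no inner end on this sequence. The last cluster ran past the stated end of 3L in each list, by 488 bp for replicate 1, by 517 bp for replicate 2 and by 860 bp for the combined set, and was trimmed to it. The last 100 kb were 93.3% ± 0.152 covered (SD, n = 2).

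Breaks inside the block were short, and most of their edges lay close together in the replicates. Intervals of at least 5 kb with no cluster in either replicate numbered 15, with a median length of 5.93 kb. Together they made up 103 kb, or 6.86% of the block and 53.3% of its 193 kb that neither replicate covered. Each replicate alone had a similar number, 17 in replicate 1 and 15 in replicate 2, and the combined set had 11. Of the 30 edges of the 15 breaks, 25 differed by at most 500 bp between the replicates, with a median difference of 134 bp. A break was defined by the lack of a cluster in either replicate, so its presence in both follows from that definition. Edges were compared for these shared intervals only.

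The longest break was 14.2 kb, from 23818665 to 23832877. Its outer edge differed by 7 bp between the replicates and its inner edge by 924 bp. The clusters beside it were strong, with scores of 1.82 and 1.92 on the outer side and 1.33 and 1.39 on the inner side in replicates 1 and 2. The combined set covered 22.1% of it. The next, 10.2 kb from 24126419 to 24136577, lay between clusters that scored 2.24 and 2.16 outward and 1.63 and 1.89 inward, and the combined set covered 19.2% of it. In the replicates both breaks were met by clusters scoring above 1, with no belt of weak clusters beside them. The combined set had a separate cluster inside each break. It was 1995 bp with a score of 2.20 in the longest and 1498 bp with a score of 1.75 in the next.

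The third and the fourth breaks were less exactly placed. That of 8.66 kb (23317680 to 23326337) had an inner edge that differed by 4323 bp, and there replicate 2 had a pair of weak clusters (scores 0.62 and 0.50) that replicate 1 lacked. That of 6.63 kb (24211233 to 24217860) had an outer edge that differed by 4178 bp, where replicate 2 had a cluster of 2017 bp with a score of 0.99. The fifth, 6.29 kb from 24265596 to 24271887, differed by 150 and 119 bp at its edges. The combined set covered 25.4%, 3.85% and 5.83% of these 3. No break was free of the combined set, whose clusters covered from 1.28% to 53.2% of each and 17.5 kb in all. Assembly gaps and repeats to which reads cannot be placed were not examined, so an uncovered interval cannot be read as unmarked chromatin.

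Open intervals were most frequent in the outer part of the block in both replicates. The outer 500 kb of it held 9 intervals of at least 5 kb in replicate 1 and 8 in replicate 2. The middle 500 kb held 3 and 2, and the inner 500 kb held 5 in each. In the combined set the outer, middle and inner parts held 5, 2 and 4, so the outer part differed little from the inner one there. Coverage of the outer part was 79.3% in replicate 1 and 82.5% in replicate 2, against 86.6% and 88.7% in the middle and 84.6% and 86.6% at the inner end. The median cluster width was 7802.5 and 7925.5 bp in the outer part, 11310 and 16098 bp in the middle and 10731 and 10864 bp at the inner end. Median scores differed less, at 1.58 and 1.66 in the outer part, 1.61 and 1.73 in the middle and 1.59 and 1.72 at the inner end. In windows of 100 kb, replicate coverage of the block was lowest in the outermost one, from 23043558 to 23143557. It was 70.6% there in replicate 1 and 75.7% in replicate 2. The highest was from 23843558 to 23943557, at 94.0% and 95.4%. In the combined set the outermost window was 84.1% covered, and the lowest was 83.0%, from 24143558 to 24243557. Weighted by covered bases, the mean score of the 100 kb windows of the block ran from 1.39 to 1.94 in replicate 1 and from 1.59 to 1.99 in replicate 2. The longest stretch without a break shared by the replicates was 303 kb, from 23515384 to 23818664, which was 91.1% covered in replicate 1 and 92.9% in replicate 2. Next came 175 kb from 24271888 to 24446594 and 174 kb from 23832878 to 24006543.

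In 1 kb windows the block was a succession of long covered runs and short open ones. Replicate 1 had 68 covered runs with a median of 12.0 kb and a longest of 89 kb, and replicate 2 had 64 with a median of 13.5 kb and a longest of 104 kb. Runs of at least 20 kb, 22 in replicate 1 and 21 in replicate 2, held 71.2% and 71.4% of the covered windows. Open runs had a median of 3.00 kb in both replicates and a longest of 15 kb in replicate 1 and 14 kb in replicate 2. Of 67 open runs in replicate 1, 16 were of 1 kb and 31 of 2 to 4 kb.

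The flank was the reverse. Covered runs had a median of 2.00 kb in replicate 1 (9 runs) and 3.00 kb in replicate 2 (12 runs), and the longest, 12 kb in both, was the outer piece of the first wide cluster. Open runs had a median of 38.0 kb in replicate 1 and 8.00 kb in replicate 2. Open runs of at least 20 kb numbered 5 in each and held 97.2% and 94.7% of the open windows, so the medians differ through short runs: replicate 2 had 12 open runs in all and replicate 1 had 9.

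**Figure D5:**
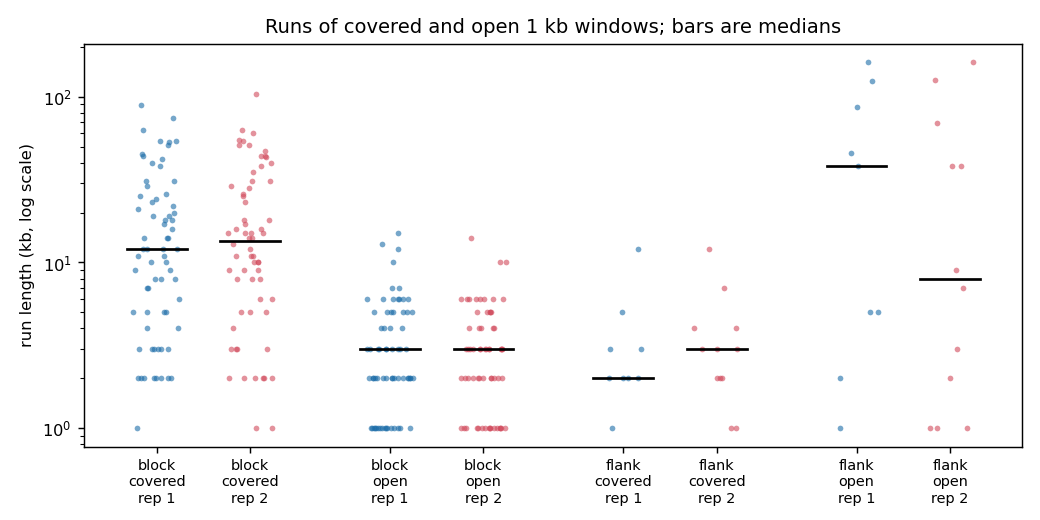
Lengths in kb (log scale) of runs of covered windows (at least 50% inside clusters) and open windows, in the block and in the flank, 1 point per run, with medians as bars. Covered runs in the block reach 89 kb in replicate 1 and 104 kb in replicate 2 and open runs there stay at or below 15 kb; in the flank open runs reach 161 kb and covered runs stay at or below 12 kb.

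Replicate agreement looked alike on both sides by one measure and unlike by another. The replicates gave the same call in 95.5% of block windows and 95.2% of flank windows, and window coverage differed by a mean of 4.71 and 4.83 percentage points. Of windows covered in either replicate, 94.8% were covered in both in the block (1243 windows) and 52.0% in the flank (26 windows). Without the outer piece of the first wide cluster, which both replicates share, the flank value was 36.8% (14 windows). Over the whole flank it was 33.3% in 5 kb windows and 84.2% with the score restriction. That restriction left a mean of 17.5 covered flank windows per replicate, 12 of them in the piece of the first wide cluster. The 84.2% thus rests on few other windows. Of windows open in either, 73.5% were open in both in the block (189 windows) and 94.9% in the flank (450 windows). On each side the agreement was higher for the call that most windows carried, so these shares do not rank the sides by repeatability. In bases the Jaccard index, the sequence covered in both over that covered in either, was 0.945 in the block and 0.513 in the flank. Without the piece of the first wide cluster the flank index was 0.368. The index counts covered sequence only, so it does not rank the sides either.

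Where the replicates disagreed, replicate 2 mostly had the extra sequence. In the block 54.1 kb were covered in replicate 2 alone and 18.2 kb in replicate 1 alone, and in the flank 18.3 and 6.47 kb. Of the 18.3 kb in the flank, 11.3 kb lay in the 30 kb of fringe, where the index was 0.223. Outward of the fringe it was 0.459, and there each replicate had 6 covered windows of its own. In the block the disagreement was spread over 166 stretches with a median of 193 bp, of which 22 reached 1 kb. The 3 longest were covered in replicate 2: 2352 bp (24220792 to 24223143), 2118 bp (23131117 to 23133234) and 2035 bp (24104147 to 24106181). The combined set covered 100.0% of the first and 100% of the others. It held all but 434 bp of the replicate sequence in the block, so this is no independent support for them.

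Clusters inside the border that matched 1 to 1 between the replicates had close edges and scores. Of the inward clusters, 89 of 90 in replicate 1 met a cluster of replicate 2 by at least 1 bp, and 73 of 78 the other way. Replicate 2 covered 86.0% of the inward sequence and replicate 1 covered 83.7%. A meeting by 1 bp was therefore likely at any agreement, so these counts do not measure it or rank the sides. The 48 pairs that matched 1 to 1 had 96 edges, and 77 of these differed by at most 500 bp, with a median of 135 bp and a largest difference of 2352 bp. Replicate 2 had the higher score in 42 of the 48, by a median of 0.11. Outward, 7 of 9 clusters of replicate 1 and 7 of 15 of replicate 2 met one in the other list. Only 5 pairs matched 1 to 1 there, with 7 of their 10 edges within 500 bp. Their median edge difference was 170 bp and their median score difference was 0.14. Clusters without a 1 to 1 match gave no edge or score difference, so on both sides these values hold for the matched pairs only.

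The combined set covered more than the replicates on both sides. It lay 5.64 percentage points above the replicate mean in the block and 8.14 points above it in the flank, which is 1.07 and 2.06 times that mean. The sequence it covered that neither replicate did was 48.8 kb in the block and 28.6 kb in the flank, or 3.26% and 5.72% of each. In the block 7 of its 69 clusters had no base in either replicate, with a median score of 1.75; in the flank 17 of 29 had none, with a median score of 0.42. Replicate sequence outside the combined set was only 434 bp in the block and 282 bp in the flank.

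The block was set beside the pericentric blocks of 2L (last 900 kb) and 2R (first 1600 kb) and the sequence 3LHet, measured in the same way. Coverage was 84.7% ± 1.69 on 3L, 80.1% ± 2.28 on 2L, 83.0% ± 2.72 on 2R and 80.0% ± 1.76 on 3LHet (SD, n = 2 each). Breaks of at least 5 kb numbered 10.0 per Mb on 3L, 7.78 on 2L, 7.50 on 2R and 10.6 on 3LHet. The longest was 14.2 kb on 3L, 24.6 kb on 2L, 18.4 kb on 2R and 47.2 kb on 3LHet. Median covered runs were 12.8, 11.2, 11.0 and 10.0 kb, and the Jaccard index between replicates was 0.945, 0.942, 0.930 and 0.933. Split in the same way, the outer border of 2R fell 1590 kb from its centromere end in both replicates, and that of 2L fell 934 kb in replicate 1 and 927 kb in replicate 2. The fixed lengths thus start inside the border on 3L and 2L and outward of it on 2R, and 3LHet is a whole sequence. These differences were not tested, since every value comes from the same 2 libraries, and the 3L block is not shown to stand apart from the others.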

How the data were processed

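The start, end and score of enriched clusters, 1 list for each of the 2 ChIP samples and 1 for the series, were the only values used. The submitters' processing notes name Bowtie 0.12.7 as a tool used, and the build is FlyBase release 5, per the file headers. Each cluster carries a score deposited by the authors, with no stated scale. How clusters were called, with what threshold and inputs, and how the combined set was made is not given in the sources used here. Clusters past the end of 3L were trimmed. Coverage, runs, splits and overlaps were computed with Python 3.11.15 and numpy 2.4.6, and figures drawn with matplotlib 3.10.9; the code was tested on simulated lists. Coordinates are 1-based and inclusive.

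The block, the lists of measures and the regions named were chosen with earlier results of these data known. The fringe of 30 kb and the division at the first wide cluster were added after seeing the data. Named regions are the longest clusters, breaks, flank clusters and disagreements, and the border clusters. The limits of 3 kb and of a score of 1, and other clusters named for their score were picked after their values were seen. Gene positions on release 5 were not used here, so no gene is named. Alternatives were a score threshold, a minimum width, joining of clusters, other windows, thresholds and borders, and each list alone.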

Additional observations from a re-analysis of the deposited data

How the results depend on the processing

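No paired analysis was possible because the inputs that share replicate numbers with the ChIP libraries have no values among the files analysed and no result comes from a test. Recomputed values were set against 1 SD of the replicates, against 1.5 times for counts, and against the Wilson 95% interval of the share for agreement. Most values are coverages, counts, distances, lengths or shares, which cannot change sign, so a reversal could not be seen in them. Block coverage of the combined set minus the replicate mean stayed positive at every setting tried, from 5.47 to 7.07 points. So did coverage of the 3L block minus the mean of 2L, 2R and 3LHet, from 2.74 to 4.65 points. The first of these signs was nearly fixed in advance, since only 434 bp of replicate sequence in the block lay outside the combined set. Its 7.07 points came from unlike score cutoffs. The file medians were 0.50 for the combined set, 0.83 for replicate 1 and 0.89 for replicate 2. Leaving out 1 of 2 replicates keeps a replicate mean within 1 SD by construction, so those values could not move by that rule. A minimum width of 1 kb removed no cluster, so those values could not move. With the combined set, block coverage was 90.4%, flank coverage 15.8%, the median covered run 16.0 kb and the excess of the 3L block over the mean of 2L, 2R and 3LHet 2.74 points, against 3.72 points in the replicates. Restricted to clusters scoring no less than their file's median, flank coverage was 3.61%, flank agreement 84.2% and that excess 4.65 points. Both flank values still include the outer piece of the first wide cluster. Flank coverage was 4.01% outward of each list's own split and 10.9% in the 250 kb next to the block. The median covered run was 14.0 kb with clusters up to 1 kb apart joined, 10.5 kb with windows covered at 90% and 16.8 kb with any covered base. Block agreement was 93.3% at 90%, and flank agreement was 33.3% in 5 kb windows. Successive 10 kb windows at least 50% covered ended 90 kb from the arm's end, at the first break, so that rule does not find the outer border. Breaks numbered 35 at a minimum of 2 kb and 2 at 10 kb.

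With each replicate alone, block coverage ran from 83.5% to 85.9%, flank coverage from 6.50% to 8.87%, the border from 1512 to 1536 kb, covered windows from 1263 to 1291, the median covered run from 12.0 to 13.5 kb, the median block score from 1.60 to 1.72, breaks from 15 to 17 and the excess from 3.32 to 4.11 points. The alternatives for that excess and for the combined set were chosen after seeing the data. Depth is unknown, so weak clusters of the fringe found in 1 list only cannot be set against a detection limit.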

Other observations

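Some low-scoring clusters inside the border had a counterpart in the other replicate at nearly the same place. Of those under a score of 1, one near the outer end lay from 23095206 to 23096552 in replicate 1 (score 0.40) and from 23095067 to 23096686 in replicate 2 (score 0.48). Another lay from 23731175 to 23733176 in replicate 1 (score 0.47) and from 23731083 to 23733028 in replicate 2 (score 0.45). These were picked after their values were seen, and what sets their score was not tested.

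At the other end of the scale, the highest scores of each replicate in the 2 Mb belonged to narrow clusters. In replicate 1 these were 2.89 for 2842 bp (23354234 to 23357075), 2.75 for 2593 bp (24096043 to 24098635) and 2.55 for 1434 bp (23771597 to 23773030), and in replicate 2 the highest was 2.83 for 1433 bp (23493626 to 23495058). The 1434 bp cluster of replicate 1 and the 1433 bp cluster of replicate 2 each had 0% of their length covered by the other replicate. Clusters of at least 10 kb stayed at or below 2.50.

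The first 100 kb of 3LHet were 70.1% ± 0.593 covered (SD, n = 2) and its last 100 kb were 80.5% ± 5.27 covered, against 93.3% ± 0.152 in the last 100 kb of 3L. How 3LHet is placed relative to the end of 3L was not examined.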
